A study of Mus musculus with 79 samples.

Results

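Efferocytosis, the uptake of dying cells and their debris, was followed here through 10 genes that were chosen by name: the TAM receptor tyrosine kinases Mertk, Axl and Tyro3, their ligands Gas6 and Pros1, the bridging protein Mfge8, the scavenger receptors Cd36, Msr1 and Marco, and the lipid receptor Trem2. These genes were chosen with earlier results of these data known, and all 10 were found among the 23361 genes counted in each library. The libraries came from mice in which the freshly cut common peroneal nerve was joined to the tibial stump through a silicone conduit, either immediately or after the tibial nerve had been cut and left denervated for 8 weeks. Animals of the immediate group had a sham incision 8 weeks before surgery. Macrophages and Schwann cells were sorted from the tissue inside the conduit at 5 or 14 days after repair, and the distal stump was taken whole at day 5.

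All animals used for sorting carried GFP driven by a human S100β promoter, so the Schwann gate holds any cell in which that transgene is on and the other surface markers were not detected. Macrophages were sorted as F4/80+ CD14+ CD16/32+ CD11b+ cells, Schwann cells as GFP+ cells negative for all of these, and cells with markers of B cells, T cells, granulocytes, fibroblasts, endothelium or red cells were discarded. Each sorted library came from about 1000 cells of 1 animal and each stump library from the stump of 1 animal, both sexes were used, and ages are not given in the sources used here. Macrophage libraries numbered 9 (delayed, day 5), 8 (immediate, day 5), 7 (delayed, day 14) and 8 (immediate, day 14). Schwann fraction libraries numbered 9, 7, 7 and 8 in the same order, and the stump gave 9 delayed and 7 immediate libraries. In all, 79 libraries from 32 animals were analysed.

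Dying cells display phosphatidylserine, which Gas6 and Pros1 (protein S) link to the TAM receptors and which Mfge8 links to αv integrins, so that the phagocyte can engulf them. Scavenger receptors such as Cd36, Msr1 and Marco bind oxidised lipoproteins, modified lipids and particles directly, and Trem2 senses lipids and lipoproteins through its adaptor Tyrobp. After a nerve is cut, the distal axons and their myelin break down, and Schwann cells and macrophages that enter the nerve share the clearance of this debris.

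Total counts ranged from 14928745 to 28499407 per macrophage library, from 11614940 to 30796823 per Schwann fraction library and from 3898778 to 9212709 per stump library. Levels are given as CPM, counts scaled to one common library total, and as CPM per kilobase of exon where genes are compared with each other. In the shallowest libraries of these kinds, 3 counts amounted to 0.201, 0.258 and 0.769 CPM. The sorted macrophages had all 10 macrophage markers in every group, at a summed level of 21909 to 41980 CPM. Among these markers, Adgre1, Cd14, Itgam and Fcgr3 encode proteins used in the sort, so the sort partly fixed this list. The sorted Schwann fraction went partly against its label. Its 10 Schwann cell markers summed to 143 to 3477 CPM, whereas the 10 dendritic cell markers summed to 3966 to 20624 CPM and the 10 macrophage markers to 994 to 13153 CPM. It is therefore called the sorted Schwann fraction below, and a level in it cannot be assigned to one cell type. The stump libraries were made with another kit and from whole tissue, so the stump was compared only with itself.

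Promoter sequences are shown for the members that passed the test between days in macrophages (Axl, Pros1 and Mfge8) or between repair groups in the stump (Axl, Pros1 and Tyro3), so that their sequence features can be seen beside their values. Each sequence is the 250 bases before the annotated start of transcription, 5′ to 3′ on the strand of the gene, from RefSeq on GRCm38.p6. An entry was found for 9 of the 10 members, all except Msr1. Capitals mark matches, on either strand, to GGGCGG (the SP1 box), GAGGAA (a PU.1 core), TGANTCA (an AP-1 site), CACGTG (the E-box of lysosomal CLEAR elements), TATAAA (the TATA box) or the interferon response element (GAAA, any 2 bases and GAAA). The starts are those of RefSeq and can differ from the GENCODE gene bounds given below, as for Tyro3.
Axl, chr7:25788734-25788983, minus strand: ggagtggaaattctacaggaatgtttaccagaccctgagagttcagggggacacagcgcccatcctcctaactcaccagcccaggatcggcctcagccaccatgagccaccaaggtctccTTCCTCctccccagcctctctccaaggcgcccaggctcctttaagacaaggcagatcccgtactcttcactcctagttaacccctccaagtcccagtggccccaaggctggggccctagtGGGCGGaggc
Pros1, chr16:62854057-62854306, plus strand: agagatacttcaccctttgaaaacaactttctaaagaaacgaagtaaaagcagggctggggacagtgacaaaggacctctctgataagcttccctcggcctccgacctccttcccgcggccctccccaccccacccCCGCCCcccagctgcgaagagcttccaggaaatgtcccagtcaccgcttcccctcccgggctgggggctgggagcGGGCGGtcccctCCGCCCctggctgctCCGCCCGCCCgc
Mfge8, chr7:79149061-79149310, minus strand: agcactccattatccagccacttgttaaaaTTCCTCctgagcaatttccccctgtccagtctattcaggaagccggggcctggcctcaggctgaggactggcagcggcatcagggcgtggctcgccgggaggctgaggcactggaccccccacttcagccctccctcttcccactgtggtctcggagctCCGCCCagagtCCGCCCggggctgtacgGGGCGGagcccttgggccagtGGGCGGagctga
Tyro3, chr2:119799264-119799513, plus strand: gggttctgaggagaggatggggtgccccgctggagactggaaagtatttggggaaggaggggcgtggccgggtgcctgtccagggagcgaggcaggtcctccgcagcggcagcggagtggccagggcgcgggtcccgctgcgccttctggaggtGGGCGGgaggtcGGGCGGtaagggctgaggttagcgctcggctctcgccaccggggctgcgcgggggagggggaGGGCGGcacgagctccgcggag
All 4 hold the SP1 box, as do 7 of the 9 members with an entry and 32.7% of 32851 mouse promoters of this length. Tyro3 has 3 such boxes, Pros1 has 5, of which the last 2 overlap, Mfge8 has 4 and Axl has 1. The box of Axl starts 10 bases before its RefSeq start. Axl and Mfge8 also carry 1 PU.1 core each, as do Marco and Trem2 and 23.3% of all promoters. No match to the AP-1, E-box, TATA or interferon motifs lies in these 4 windows, and among the 9 members only Trem2 has an AP-1 match. In all promoters the AP-1, E-box, TATA and interferon motifs occur in 6.75%, 6.02%, 12.4% and 2.98%, in that order. A match is a run of letters and not evidence that a factor binds.

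**Figure D1:**
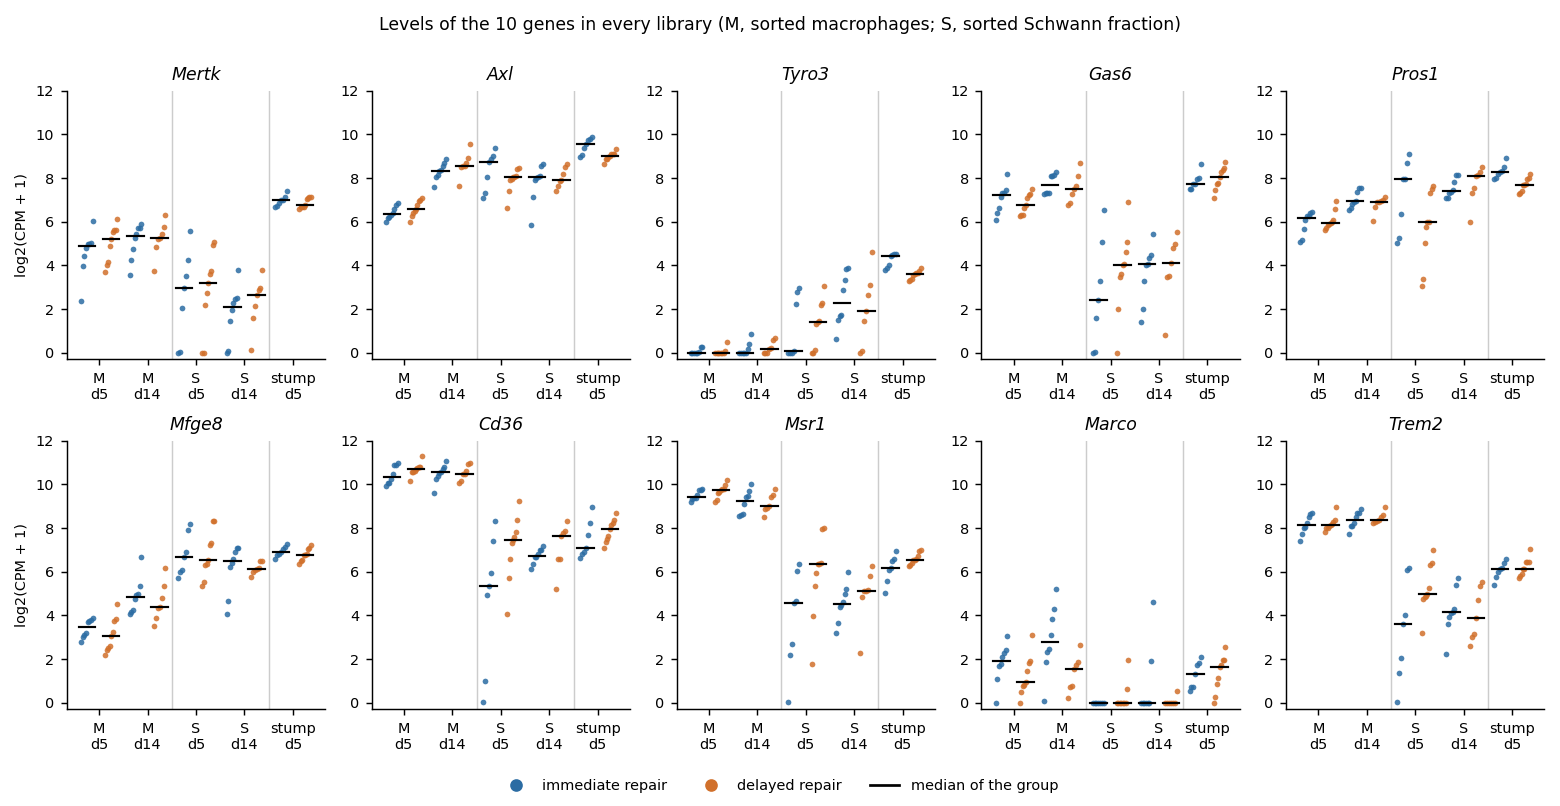
Level of each gene in each of the 79 libraries, as log2(CPM + 1), by sorted fraction (M, macrophages; S, Schwann fraction) or stump, day and repair group. Points are libraries and the bar is the group median. Cd36, Msr1 and Trem2 are each higher in macrophages than in the Schwann fraction, Tyro3 is at or near 0 in macrophages, and Axl is higher in macrophages at day 14 than at day 5.

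In macrophages Cd36, Trem2 and Msr1 were the most abundant members per length. Cd36 (chr5:17781690-17888801 on GRCm38, minus strand), which takes up fatty acids and oxidised lipoproteins, led at both days, with medians of 444 CPM per kb at day 5 and 412 CPM per kb at day 14. Trem2 (chr17:48346401-48354147, plus strand) came next with 246 and 288 CPM per kb, and Msr1 (chr8:39581685-39642673, minus strand), the class A scavenger receptor, followed with 201 and 137 CPM per kb. Gas6 was at 52.1 and 69.6 CPM per kb, Pros1 at 18.7 and 36.5, Mertk at 7.03 and 8.62, and Mfge8 at 3.91 and 12.3. Neighbours in the order given overlapped in range at each day, except that every Msr1 level at day 5 (144 CPM per kb or more) lay above every Gas6 level (114 CPM per kb or less) and every Pros1 level at day 14 (19.3 CPM per kb or more) above every Mertk level (18.1 CPM per kb or less). Marco (chr1:120474538-120505024, minus strand), a receptor for bacteria and particles, had group medians of 0.953 and 2.85 CPM at day 5 (delayed, immediate) and 1.89 and 6.16 CPM at day 14, with a highest value of 36.6 CPM. Tyro3 was at 0 in 20 of the 32 macrophage libraries and did not exceed 0.836 CPM in any.

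Among the TAM receptors of macrophages Axl stood above Mertk, and Tyro3 was last. Axl (chr7:25757273-25788705, minus strand), the receptor usually induced during inflammation, had medians per length of 22.1 and 18.9 CPM per kb at day 5 (delayed, immediate) and 88.0 and 74.7 CPM per kb at day 14. That made it the 5th and then the 4th member after delayed repair, and the 6th, behind Pros1, and then the 5th, behind Gas6, after immediate repair. Mertk (chr2:128698956-128802894, plus strand), the receptor that marks resident and debris-clearing macrophages, was the 7th at day 5 and the 8th at day 14 in both repair groups. The ranges of Axl and Mertk per length overlapped slightly at day 5 and did not overlap at day 14, when the lowest Axl level was 44.8 and the highest Mertk level 18.1 CPM per kb. The levels of Mertk varied widely among animals, and at day 5 they split by sex. The 8 libraries from males ran from 4.15 through 16.1 to 28.7 CPM and the 9 from females from 30.2 through 45.1 to 68.6 CPM, without overlap, as for 3.7% of the genes tested at day 5. Trem2 was the other member whose sexes did not overlap at day 5 (169 to 272 CPM in males, 281 to 496 CPM in females). At day 14 the sexes overlapped for both genes, with Mertk at 10.7 to 77.7 CPM in males and 17.8 to 59.2 CPM in females. This split was noticed in the data and was not tested, and with sex as a covariate no member was called between repair groups in macrophages.

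Axl, Pros1 and Mfge8 rose in macrophages from day 5 to day 14, in both repair groups. This comparison asks how the clearance genes of macrophages in the bridge change as repair proceeds. Of the 8 members that passed the filter on low counts, 3 were higher and 0 lower at day 14 after immediate repair. Of the 8507 genes tested there, 11.3% changed, 5.33% upward and 6.01% downward. After delayed repair 3 of 8 were again higher and 0 lower, while 6.41% of 8529 genes changed, 3.28% upward and 3.13% downward. Tyro3 and Marco did not pass the filter of 5 CPM in at least 6 libraries.

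Axl was lowest at 62.9, with a median of 81.0 and a highest value of 116 CPM, in the 8 immediate libraries at day 5, and ran from 192 through a median of 320 to 465 CPM in the 8 at day 14. All 8 later libraries lay above all 8 earlier ones, as for 2.19% of the genes tested. The log2 fold change was 1.78 ± 0.17 (SE), with an adjusted p of 5.5e-06 in edgeR's quasi-likelihood test. After delayed repair Axl went from 61.9, 94.5 and 134 CPM (lowest, median and highest of 9) to 197, 377 and 752 CPM (of 7). Here too all later libraries lay above all earlier ones, as for 0.856% of genes, and the log2 fold change was 2.04 ± 0.21 with an adjusted p of 2e-05. The rise did not differ detectably between the repair groups, with an interaction of 0.26 ± 0.28 on the log2 scale and an unadjusted p of 0.35 in edgeR.

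Pros1 (chr16:62854307-62929346, plus strand), protein S, which activates Mertk and Tyro3 and is also an anticoagulant, ran from 32.7 through 71.1 to 86.9 CPM at day 5 after immediate repair and from 92.1 through 122 to 183 CPM at day 14. Again no library at day 5 reached the day 14 range, and the log2 fold change was 0.93 ± 0.20 with an adjusted p of 0.0059 in edgeR. After delayed repair Pros1 ran from 47.8 through 60.3 to 122 CPM at day 5 and from 63.8 through 120 to 140 CPM at day 14. These groups overlapped, with 6 of the 7 later libraries above the day 5 mean, and the log2 fold change was 0.66 ± 0.17 with an adjusted p of 0.028. Leaving out any one of 5 libraries (delayed replicates 6 and 7 at day 5 and 2, 6 and 8 at day 14) moved this last adjusted p above the threshold, to at most 0.0585.

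Mfge8 (chr7:79133768-79149060, minus strand), the secreted bridge between phosphatidylserine and integrins, was low but rose with the largest fold after Axl. After immediate repair it ran from 5.87 through 10.1 to 13.9 CPM at day 5 and from 15.8 through 27.8 to 102 CPM at day 14. The days did not overlap, and the log2 fold change was 1.63 ± 0.35 with an adjusted p of 0.0051 in edgeR. The library at 102 CPM, replicate 4, stood far above the next at 39.3 CPM, and the lowest log2 fold change over all fits that left out 1 library was 1.17, still past the threshold. After delayed repair Mfge8 ran from 3.60 through 7.44 to 21.9 CPM at day 5 and from 10.5 through 19.6 to 71.8 CPM at day 14, a log2 fold change of 1.65 ± 0.41 with an adjusted p of 0.02. The groups overlapped, and without replicate 1 of day 14 the log2 fold change was 1.21 and the adjusted p 0.058.

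Of the other members, Gas6 (chr8:13465374-13494490, minus strand), the ligand of all TAM receptors, had log2 fold changes of 0.43 ± 0.24 after immediate and 0.78 ± 0.24 after delayed repair, with adjusted p of 0.27 and 0.063 in edgeR. Msr1 had values of -0.40 ± 0.21 and -0.57 ± 0.20, with adjusted p of 0.22 and 0.097. For delayed repair, both passed the threshold in DESeq2, and Msr1 also with sex as a covariate (-0.60, adjusted p 0.049). Gas6 also passed without replicate 8 of day 5 or replicates 1 or 8 of day 14 (adjusted p down to 0.029), and Msr1 without replicate 1 of day 14 (adjusted p 0.035). Mertk, Cd36 and Trem2 had log2 fold changes between -0.22 and 0.25 over both groups. The smallest adjusted p of these 3 was 0.41.

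**Figure D2:**
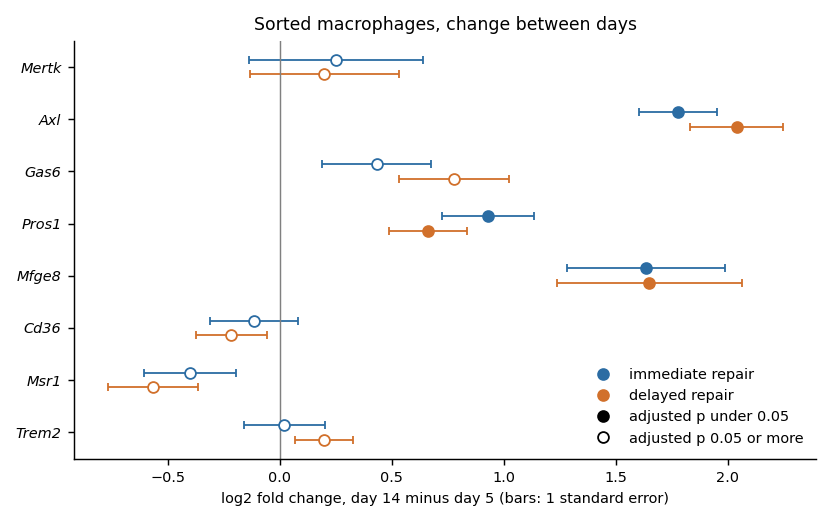
Change of each member that passed the filter in sorted macrophages, as log2 fold change of day 14 over day 5 with 1 standard error, for immediate and delayed repair. Filled points have an adjusted p under 0.05. Axl, Mfge8 and Pros1 are filled in both repair groups.

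Markers of other cells moved in the same macrophage libraries. The summed level of 9 fibroblast markers had medians of 26.9 and 35.3 CPM at day 5 (immediate, delayed) and 85.2 and 71.8 CPM at day 14, with a highest library at 1289 CPM. With the fibroblast score, the mean log2(CPM + 1) over the list, as a covariate chosen after the values were seen, Axl and Mfge8 kept adjusted p under the threshold in both groups. Pros1 did not, with log2 fold changes of 0.76 (adjusted p 0.084) and 0.41 (adjusted p 0.21). With the dendritic cell score as covariate, Pros1 had a log2 fold change of 0.70 and an adjusted p of 0.057 after immediate repair. The 10 macrophage markers themselves summed to medians of 30515 and 29500 CPM at day 5 and 33970 and 34172 CPM at day 14, and the neutrophil score was lower at day 14 by 0.42 and 0.59 (exact permutation p of 0.000155 and 0.0022). The T cell score was higher at day 14 by 0.33 and 0.45 (exact permutation p of 0.0011 and 0.00061), and the mural cell score by 0.32 after immediate repair (exact permutation p 0.0012). Their part in the members' levels was not tested.

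Genes of lipid handling after engulfment that changed in macrophages all rose. This list and the other wider lists were chosen with earlier results of these data known, so their counts beside all genes are a description. Of the 20 on this list 18 were tested, and 4 rose and 0 fell after immediate repair, where 5.33% of all genes rose and 6.01% fell, and 5 and 0 after delayed repair, where 3.28% rose and 3.13% fell. The list's median log2 fold change was 0.22 in each group, while the median of all genes was 0.01 and -0.00. Gpnmb, a lysosomal glycoprotein of lipid-laden macrophages, rose by 1.31 ± 0.33 and 1.95 ± 0.36, and Rxra, the partner of the liver X receptors, by 0.66 ± 0.17 and 1.37 ± 0.30. Abcg1, a cholesterol exporter, rose by 0.65 ± 0.15 after immediate repair, and Lipa, the lysosomal acid lipase, by 0.62 ± 0.11 after delayed repair.

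Other recognition and scavenger genes moved both ways, with list medians between -0.20 and 0.04, and the counts below stand beside 11.3% (immediate) and 6.41% (delayed) of all genes called. Of 32 recognition and engulfment genes, 23 were tested after immediate repair, with 1 higher (Abca7, 0.83 ± 0.24) and 2 lower (Cd300lf, a phosphatidylserine receptor, -1.53 ± 0.25, and Tgm2, -0.62 ± 0.15), and 24 after delayed repair, with 1 higher (Cx3cr1, the fractalkine receptor, 2.39 ± 0.59) and 1 lower (Cd300lf, -1.03 ± 0.25). Of 16 further scavenger receptors 11 were tested. Clec7a, the β-glucan receptor dectin-1, rose by 0.91 ± 0.14 and 1.16 ± 0.23, while Olr1 (-0.91 ± 0.19) and Cd68 (-0.30 ± 0.09) fell after immediate repair and were not called after delayed repair. In the TREM family, its adaptors and sheddases, 1 of 10 tested genes changed in each group, a share close to that of all genes. This was Trem1, an amplifier of inflammation, which fell by 2.25 ± 0.22 and 1.75 ± 0.33 while Trem2 did not pass the test.

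No member passed the test between delayed and immediate repair in macrophages. At day 5, 0 of 8 members tested were called, where 0.0357% of 8409 genes were, and at day 14 again 0 of 8, where 0% of 8589 genes were. At an unadjusted p under 0.05, 0 members passed at either day, where 5.17% and 2.21% of genes did, and DESeq2 called 0 members. Log2 fold changes at day 5 ran from -0.42 ± 0.23 for Gas6 to 0.23 ± 0.38 for Mertk. At day 14 they ran from -0.24 ± 0.17 for Pros1 to 0.38 ± 0.23 for Axl. In the 4 wider lists 0 genes were called at either day. Marco, which was not tested, ran from 0.169 through 1.89 to 5.19 CPM in the delayed and from 0.0539 through 6.16 to 36.6 CPM in the immediate libraries at day 14, with all 7 delayed libraries below the immediate mean of 10.9 CPM but inside the immediate range. In the test of whether the effect of delay changed with the day, 0 of 9 members passed in edgeR, where 0.0223% of 8949 genes did. At an unadjusted p this was again 0, where 3.61% of genes passed, and DESeq2 called 0 members.

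Across macrophage libraries, after the mean of each of the 4 groups had been subtracted, members fell into sets that varied together. These correlations are over the same 32 libraries, which differ in depth, and are given as a description. Trem2 varied with Mertk (Pearson r = 0.75), Gas6 (0.74) and Pros1 (0.69), and Gas6 varied with Mertk (0.70) and Pros1 (0.70). Pros1 also varied with Cd36 (0.55) and Mertk (0.54). Msr1 ran opposite to Trem2 (-0.72), Mertk (-0.70) and Gas6 (-0.65). Axl stood apart, with r between -0.09 and 0.25 against the 8 other members that passed the filter, which Tyro3 did not. Mfge8 did likewise, with r between -0.21 and 0.13. Sex was not removed here, and with the mean of each sex within each group also removed, a choice made after the values were seen, r among Trem2, Mertk, Gas6 and Pros1 ran from 0.40 (Mertk and Pros1) to 0.68, against 0.54 to 0.75, and that of Trem2 with Mertk was 0.62.

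**Figure D3:**
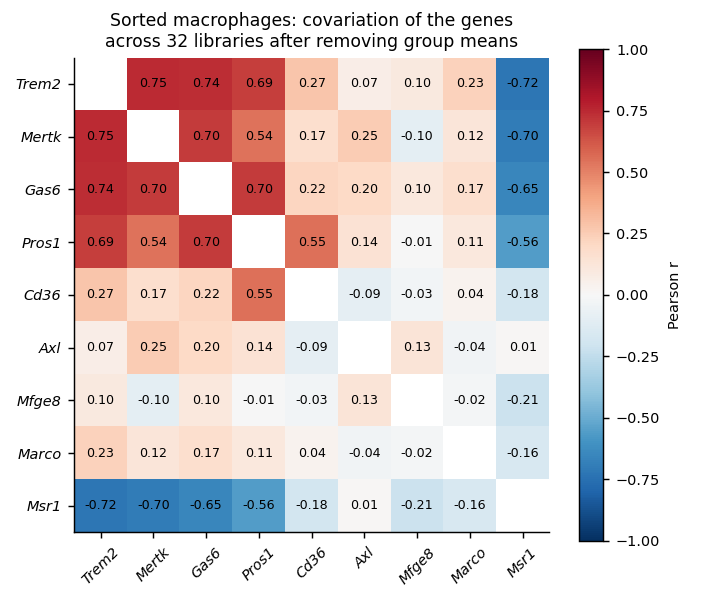
Pearson r between members across 32 macrophage libraries, computed on log2(CPM + 1) after removing the mean of each group of day and repair. Trem2, Mertk, Gas6 and Pros1 are positively related, with r from 0.54 to 0.75, and each runs opposite to Msr1.

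Among all 8949 genes, those most like Mertk by this measure were Tcf7l2 (0.89), Acer3 (0.89) and Fosb (0.88), and those most like Trem2 were Ppa2 (0.91), Pkib (0.91) and 1500011K16Rik (0.91). Gas6 was most like Wwp1 (0.88), Camk1 (0.87) and Sepp1 (0.87), and Pros1 most like Ckb (0.89), Ech1 (0.82) and Atp6v0a1 (0.82). Msr1 was most like Pion (0.86), Irg1 (0.85) and Fpr1 (0.85), and Cd36 most like Rnf128 (0.72), Anxa1 (0.71) and Akr1b8 (0.71). The closest to Axl were Lgals3bp (0.71), Sirpa (0.69) and Bcl2l13 (0.68). Likeness was weaker for Mfge8, with Ubald2 (0.65), Anpep (0.59) and Gpc1 (0.59), and for Marco, with Slc39a3 (0.56), 1810043H04Rik (0.52) and Prnp (0.52).

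In the distal stump at day 5, Axl, Tyro3 and Pros1 were lower after delayed repair and the scavenger receptors did not pass the test. The stump is the chronically or freshly denervated tibial nerve itself, and this comparison asks what 8 weeks of denervation change there. Of 9 members tested, 0 were higher and 3 lower, where 26.3% of 12229 genes were called, 12.8% higher and 13.5% lower. The share of members called was close to that of all genes, so it is not a result about the members as a set. In a bulk sample, fewer cells of a type and less RNA per cell cannot be told apart.

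Per length, Axl was the most abundant member of the stump, with medians of 119.9 CPM per kb in the delayed and 174 CPM per kb in the immediate stumps. Gas6 came next after delayed repair (105 CPM per kb) and Pros1 after immediate repair (94.0 CPM per kb). Axl ran from 405 through 514 to 639 CPM in the delayed and from 501 through 746 to 931 CPM in the immediate stumps. All 9 delayed stumps were below the immediate mean and 4 were below every immediate stump. The log2 fold change was -0.48 ± 0.13 with an adjusted p of 0.012 in edgeR.

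Tyro3 (chr2:119797733-119818104, plus strand), the TAM receptor best known from neural tissue, ran from 8.81 through 11.2 to 13.6 CPM in the delayed and from 13.02 through 20.3 to 22.3 CPM in the immediate stumps. Of the delayed stumps, 8 of 9 lay below every immediate one. The log2 fold change was -0.70 ± 0.13 with an adjusted p of 0.0012 in edgeR. Pros1 ran from 154 through 206 to 294 CPM in the delayed and from 245 through 310 to 476 CPM in the immediate stumps, with 6 of 9 delayed stumps below every immediate one. Its log2 fold change was -0.59 ± 0.15 with an adjusted p of 0.0098.

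The other ligands and receptors overlapped broadly. Gas6 had a log2 fold change of 0.20 ± 0.23, Mfge8 of -0.11 ± 0.14, Mertk of -0.07 ± 0.12, Cd36 of 0.28 ± 0.34 and Trem2 of 0.20 ± 0.20, each with an adjusted p of 0.49 or more. Msr1, at a median of 92.9 CPM in delayed and 70.1 CPM in immediate stumps, had a log2 fold change of 0.39 ± 0.21 and an adjusted p of 0.19. Marco was not tested, at medians of 2.097 and 1.47 CPM.

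**Figure D4:**
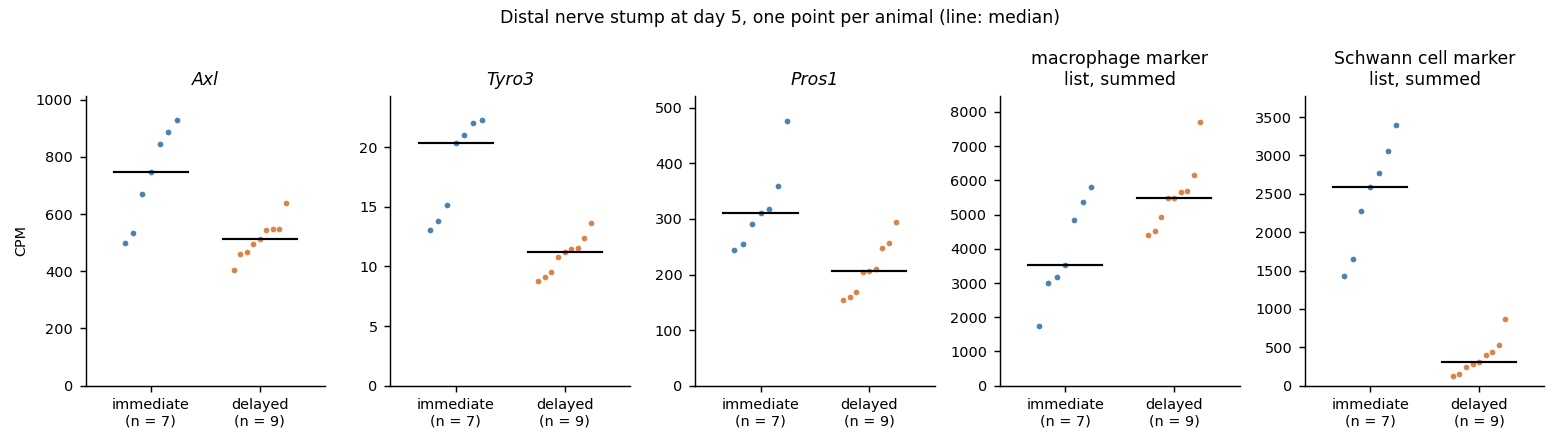
CPM of Axl, Tyro3 and Pros1 and the summed CPM of the macrophage and Schwann cell marker lists in the distal stump at day 5, 1 point per animal with the group median, linear axes from 0. The 3 genes are lower in most delayed stumps, and the Schwann cell list does not overlap between the groups.

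The makeup of the stump differed between the groups. The 10 Schwann cell markers summed to 123 to 868 CPM in the delayed and 1429 to 3401 CPM in the immediate stumps, with no overlap, and Mbp, a myelin protein, fell by 2.06 ± 0.15 on the log2 scale. Because this list separated the groups completely, a change of the members within Schwann cells and a change in the number of Schwann cells cannot be told apart. The macrophage list was higher after delay (medians of 5499 and 3524 CPM, difference of the score 0.69, exact permutation p = 0.0043), as was the endothelial list (1683 and 1150 CPM, exact permutation p = 8.7e-05, the smallest this design allows), while the fibroblast score differed by -0.00 (exact permutation p = 0.99). The scores of mural cells (by 0.44, exact permutation p 0.00061), dendritic cells (by 0.51, p 0.0040) and T cells (by 0.85, p 0.0089) were also higher after delay, and their part in the members' levels was not tested. With the macrophage score as a covariate, 1 member was still called, Pros1 with a log2 fold change of -0.64 and an adjusted p of 0.048. Axl then had -0.09 (adjusted p 0.59) and Tyro3 -0.41 (adjusted p 0.07).

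In the wider lists the stump moved both ways. Of 29 recognition and engulfment genes tested, 7 were higher and 3 lower after delay, where 12.8% of all genes were higher and 13.5% lower. Cd47, the signal that inhibits engulfment, rose by 0.70 ± 0.10, whereas Megf10, an engulfment receptor of glia, fell by 2.93 ± 0.45 and Gulp1, an engulfment adaptor, by 1.18 ± 0.18. Of 20 lipid handling genes 1 rose and 3 fell. Those that fell were the cholesterol exporter Abca1 (-1.10 ± 0.13), the galectin gene Lgals3 (-1.87 ± 0.29) and Npc1 (-0.42 ± 0.12), which moves cholesterol out of lysosomes. In the TREM list 3 of 10 tested genes rose and 1 fell, and the 3 that rose, Syk (0.73 ± 0.19), Inpp5d (0.61 ± 0.13) and Plcg2 (0.59 ± 0.12), carry or limit signals of immune receptors. Of 14 further scavenger receptors 3 rose and 1 fell, with Cxcl16, which binds phosphatidylserine and oxidised lipids, at 1.07 ± 0.15, Scarf2 at 0.46 ± 0.14 and Scarb2, a lysosomal membrane protein, at -1.01 ± 0.17. The medians of these lists were 0.24, 0.15, 0.39 and 0.15 in the order given, and that of all genes was 0.02.

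The sorted Schwann fraction was compared with macrophages to show which of the 2 sorted populations held each transcript. At day 5, 17 macrophage and 16 Schwann fraction libraries entered, and 16 animals had both. At day 14, 15 of each entered, both from the same 15 animals. The compared libraries used the same amplification kit with different amounts of cDNA. Cd36, Msr1, Trem2, Gas6 and Mertk were lower in the Schwann fraction at both days, and Mfge8 was higher at both. At day 5, 2 of 8 members tested were higher and 5 lower, where 65.3% of 10087 genes differed, 35.6% higher and 29.7% lower. At day 14, 3 were higher and 7 lower of 10, where 64.7% of 10596 genes differed, 37.1% higher and 27.6% lower. Mertk, Tyro3 and Marco would not have passed the filter at day 14 on the fraction in which each was lower, so the filter favoured their direction. Of the 7 members that passed it in each fraction alone, 2 were higher and 5 lower.

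Cd36, Msr1, Trem2, Gas6 and Mertk had medians in the Schwann fraction of 4.98% to 24.6% of their macrophage medians. Cd36 ran from 0.0351 through 126 to 607 CPM in the Schwann fraction at day 5 and from 984 through 1569 to 2526 CPM in macrophages. Its ranges did not overlap, as for the 4.19% of genes tested that lay wholly lower in the Schwann fraction. The Schwann fraction median of Cd36 stood at 8.02% of its macrophage median. The corresponding shares were 6.22% for Msr1, 10.04% for Trem2, 8.00% for Gas6 and 24.6% for Mertk at day 5, and 5.56%, 4.98%, 8.78% and 10.5% at day 14, when Cd36 stood at 7.54%. The summed macrophage markers of the Schwann fraction, a list partly fixed by the sort, were 12.2% of those in macrophages at day 5 and 8.35% at day 14. The part of macrophage RNA in these 5 levels was not tested. The order of the members per length differed between the repair groups. At day 5 Axl had the highest median in both (61.6 delayed, 100.3 CPM per kb immediate), while Pros1 was the 6th member after delayed (19.0) and the 2nd after immediate repair (74.8 CPM per kb). At day 14 Pros1 led after delayed repair (82.7, ahead of Axl at 55.4) and Axl after immediate repair (60.6, ahead of Pros1 at 50.6 CPM per kb), with ranges that overlapped.

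The log2 differences for these genes, Schwann fraction minus macrophages, were -3.72 ± 0.56 for Cd36, -4.07 ± 0.56 for Msr1, -3.31 ± 0.48 for Trem2, -2.77 ± 0.63 for Gas6 and -1.70 ± 0.61 for Mertk at day 5. At day 14 they were -3.86 ± 0.22, -4.67 ± 0.32, -4.38 ± 0.33, -4.00 ± 0.39 and -3.48 ± 0.50. The largest adjusted p in edgeR was 0.015, for Mertk at day 5.

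Mfge8 was higher in the Schwann fraction at both days. At day 5 it ran from 39.3 through 97.0 to 323 CPM there and from 3.60 through 8.31 to 21.9 CPM in macrophages. The ranges did not overlap, as for the 10.7% of genes that lay wholly higher there, and the Schwann fraction was higher in 16 of 16 animals, with a log2 difference of 3.71 ± 0.35 and an adjusted p of 2.7e-11 in edgeR. At day 14 it ran from 15.7 through 73.0 to 136 CPM against 10.5 through 26.1 to 102 CPM, and was higher in 14 of 15 animals (log2 difference 0.90 ± 0.30, adjusted p 0.0093).

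Axl changed sides between the days. At day 5 it was higher in the Schwann fraction, at 99.4 through 264 to 663 CPM against 61.9 through 90.2 to 134 CPM in macrophages, in 16 of 16 animals (log2 difference 1.43 ± 0.17, adjusted p 8.9e-09 in edgeR). At day 14 it was lower there, at 56.7 through 256 to 403 CPM against 192 through 372 to 752 CPM, with the Schwann fraction higher in 4 of 15 animals (log2 difference -0.91 ± 0.19, adjusted p 0.00011).

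A test of the change in this difference between the days, chosen after the values were seen, gave -2.38 ± 0.26 for Axl (adjusted p 1.1e-09 in edgeR) and -2.84 ± 0.45 for Mfge8 (adjusted p 4.9e-06). These were 2 of 10 members, both lower, where 15.8% of 11161 genes were called, 4.95% higher and 10.8% lower. The macrophage libraries of this test are those of the comparison of days above. The fit treats the fractions of 1 animal as independent, and both genes were also called with the animal as a block.

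**Figure D5:**
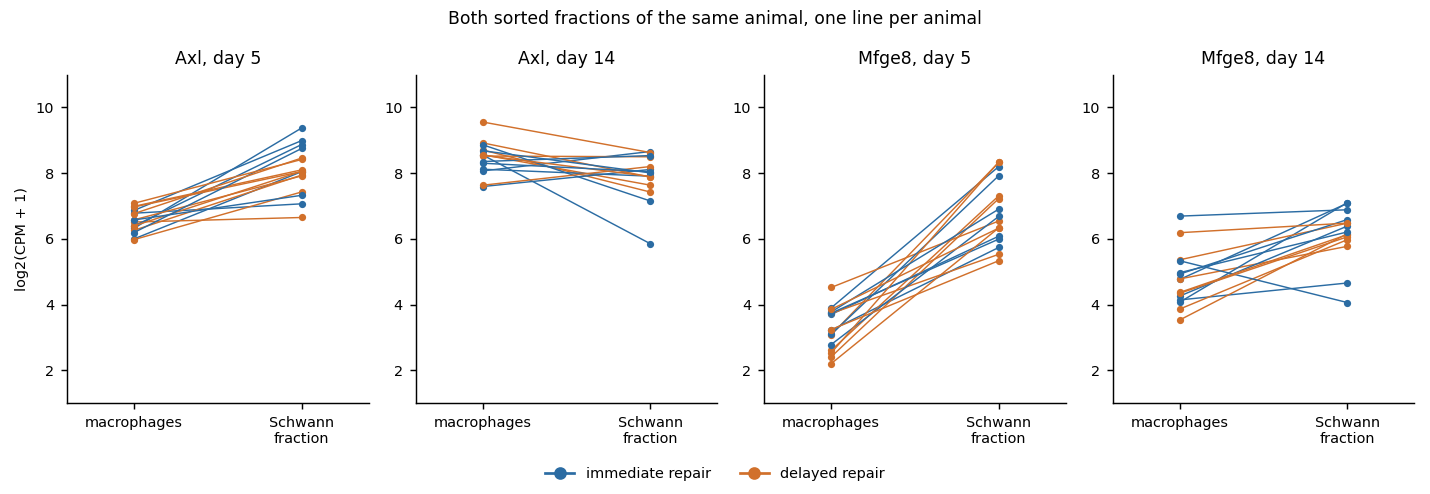
Axl and Mfge8 in both sorted fractions of the same animal, as log2(CPM + 1), at days 5 and 14, 1 line per animal coloured by repair group. Axl lines rise toward the Schwann fraction in all 16 animals at day 5 and in 4 of 15 at day 14, and Mfge8 lines rise in 16 of 16 and 14 of 15.

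Dendritic cell markers summed to medians of 13048 and 8528 CPM in the Schwann fraction (days 5 and 14) and 49.2 and 89.6 CPM in macrophages. Fibroblast markers summed to 1249 and 6319 CPM there and 34.3 and 81.4 CPM in macrophages, and Schwann cell markers to 337 and 853 CPM there. The part of these cell types in the levels of Axl, Mfge8, Pros1 and Tyro3 was not tested.

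Pros1 and Tyro3 were also found in the Schwann fraction. Pros1 ran from 7.27 through 71.6 to 545 CPM at day 5 and from 62.6 through 183 to 360 CPM at day 14, with log2 differences from macrophages of 0.68 ± 0.37 (adjusted p 0.11 in edgeR) and 0.38 ± 0.16 (adjusted p 0.04). The day 14 value did not pass with the animal as a block (0.34, adjusted p 0.082), with filterByExpr (0.36, adjusted p 0.056) or without a filter on low counts (0.35, adjusted p 0.068). Tyro3 was at 0 in 5 of 16 Schwann fraction libraries at day 5 and 1 of 15 at day 14, with medians of 1.56 and 2.71 CPM, while the median of macrophages was 0 at both days. It was higher in the Schwann fraction in 13 of 15 animals at day 14. Marco was at 0 in 26 of 31 Schwann fraction libraries, and its highest value, 23.9 CPM, came from 1 immediate library at day 14.

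The wider lists are counted here over the genes that passed the filter in each fraction alone, beside 35.6% of all genes called higher and 29.7% lower at day 5 and 37.1% and 27.6% at day 14. In the recognition list 3 of 23 were higher and 17 lower in the Schwann fraction at day 5, and 4 and 15 of 22 at day 14. Lrp1, a large endocytic receptor, was lower, at -2.55 ± 0.20 and -2.88 ± 0.18. Lipid handling genes were higher in 3 and lower in 14 of 18 at day 5, and 2 and 15 at day 14, with Plin2, a lipid droplet coat protein, at -3.17 ± 0.23 and -3.98 ± 0.16. In the TREM list 0 were higher and 7 lower of 9 at each day. Of 9 further scavenger receptors 2 were higher and 5 lower at day 5 and 0 and 6 at day 14, with Cd68 at -2.86 ± 0.23 and -3.22 ± 0.17. Genes that entered only through the Schwann fraction are given by level. At day 5 the phosphatidylserine receptors Havcr1 and Timd4 had medians of 48.9 and 184 CPM there and highest macrophage values of 0.454 and 4.19 CPM, and Clu, the chaperone clusterin, had 222 CPM and 2.18 CPM. Over all listed genes tested, the list medians at days 5 and 14 were -0.86 and -0.78 (recognition), -1.58 and -1.97 (lipid handling), -1.13 and -1.26 (TREM) and -0.54 and -0.65 (scavenger), while those of all genes were 0.05 and 0.11.

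Within the Schwann fraction, delayed and immediate repair gave 0 called members of 8 tested at day 5 (0% of 9604 genes) and 0 of 8 at day 14 (0% of 10226 genes). At an unadjusted p under 0.05, 1 member passed at day 5 and 0 at day 14, where 5.26% and 3.65% of genes did, and DESeq2 called 0 members at each day. The value below that limit was Pros1, which ran from 7.27 through 62.8 to 195 CPM in delayed and from 31.3 through 247 to 545 CPM in immediate libraries at day 5. All 9 delayed libraries were below the immediate mean of 229 CPM, and the log2 difference was -1.46 ± 0.65 with an adjusted p of 0.91 in edgeR. Axl had -0.56 ± 0.29 and Msr1 1.75 ± 0.95, both with an adjusted p of 0.91. In the same day 5 libraries the macrophage markers summed to 1438 to 13153 CPM after delay and 994 to 5150 CPM after immediate repair (exact permutation p of the score 0.046, adjusted over 12 lists 0.32), and the Schwann cell markers to 143 to 503 CPM and 205 to 1321 CPM (difference of the score -1.34, exact permutation p 0.053, adjusted 0.32). With the macrophage score as a covariate the log2 difference of Msr1 was -0.21.

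Between days 5 and 14 the Schwann fraction gave 0 called members of 8 after immediate repair, where 3.81% of 10016 genes were called, and 0 of 8 after delayed repair, where 8.09% of 9961 were. At an unadjusted p under 0.05, 1 and 4 members passed, where 18.6% and 26.6% of genes did. After immediate repair this was Axl (-0.77 ± 0.34, adjusted p 0.23 in edgeR). After delayed repair these were Trem2 (-1.42 ± 0.56, adjusted p 0.12), Msr1 (-1.55 ± 0.71, adjusted p 0.17), Mfge8 (-1.25 ± 0.42, adjusted p 0.075) and Pros1 (1.31 ± 0.54, adjusted p 0.13). DESeq2 called Mfge8 and Trem2 there and 0 members after immediate repair. Schwann cell markers rose in these delayed libraries from 143 to 503 CPM in sum at day 5 to 515 to 3477 CPM at day 14 (exact permutation p of the score 0.001), and fibroblast markers from 16.4 to 3243 to 1903 to 20051 CPM (exact permutation p 0.0055). The mural cell score was higher by 0.83 (exact permutation p 0.0045). Their part in these differences was not tested. The test of whether delay acted differently at the 2 days gave 0 of 9 members, where 0% of 10923 genes were called. At an unadjusted p 1 member passed, Pros1, where 4.8% of genes did, and DESeq2 called 0 members.

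In the wider lists of the Schwann fraction, Cxcl16 fell by 1.19 ± 0.22 after immediate and 1.30 ± 0.23 after delayed repair, and Fabp5, a fatty acid carrier, by 0.83 ± 0.20 and 1.23 ± 0.25. After delayed repair Plin2 (-1.44 ± 0.34), Npc2 (-0.54 ± 0.16), Olr1 (-2.47 ± 0.61), Stab1 (-2.84 ± 0.84) and Havcr1 (-0.96 ± 0.26) also fell. In the recognition list this made, after delayed repair, 0 higher and 2 lower of 28 tested, in lipid handling 1 and 3 of 19, in further scavenger receptors 0 and 2 of 12, and in the TREM list 0 of 10, where 8.09% of all genes were called. Their medians were -0.29, -0.39, -0.22 and -0.39, and that of all genes was 0.03.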

How the data were processed

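Sorted macrophages, the sorted Schwann fraction and whole distal stumps were sequenced as separate libraries, 1 per animal and tissue. The authors deposited estimated counts per gene, with 0.951% to 1.18% of values not whole. The submitters' processing notes name cutadapt 1.8, TopHat2 2.1.1, Cufflinks 2.2.1, Cuffnorm and mm10. Which of them wrote the counts is not given in the sources used here. Sorted cells were amplified with a kit for low input and stumps were depleted of rRNA, so the tissues are not on one scale. No duplicate removal is stated, so the floors of 3 counts cover counting error only.

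Counts were rounded to whole numbers. A gene entered a comparison when 6 or more of its libraries reached 5 CPM. After TMM scaling, edgeR 4.0.16 (R 4.3.3) fitted quasi-likelihood models, tested two-sided, with Benjamini-Hochberg adjustment over all genes tested and a threshold of 0.05. Only the libraries compared entered each fit. Of the 14 comparisons, 13 were planned. Marker scores, the mean log2(CPM + 1) over a list, were compared by two-sided exact permutation tests, adjusted over 12 lists. Exon lengths came from GENCODE M21. Scripts were tested on simulated data.

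All 10 members were named, with up to 3 genes per wider list by smallest p and the 3 genes most like each member. The members and lists were chosen with earlier results of these data known. Alternatives were DESeq2 1.42.0, library size scaling, filterByExpr, no filter, sex or the macrophage score as a covariate, a block, and leaving out each library. The fibroblast and dendritic cell covariates, the removal of sex means from correlations and the test of the fraction difference between days were chosen after seeing the data. Labels give both sorted fractions of 1 animal, so the animal pairs them. The r of paired deviations was 0.00 to 0.27 at day 5 and 0.06 to 0.24 at day 14, above 0.1 in 11 of 16 and 11 of 15 pairs.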

Additional observations from a re-analysis of the deposited data

Results flagged for a closer look

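Of 99 groups of 7 to 9 libraries examined per gene, 18 held a library whose gap to its nearest neighbour was beyond Dixon's 95% limit. Chance flags about 1 in 20 groups, and several of these groups are near 0. In macrophages these were Mertk at 64.3 CPM in immediate replicate 7 at day 5 (next 31.3), Cd36 at 2526 CPM in delayed replicate 5 at day 5 (next 1769), Trem2 at 496 CPM in delayed replicate 8 at day 5 (next 333) and Mfge8 at 102 CPM in immediate replicate 4 at day 14 (next 39.3). Marco stood at 7.62 CPM in delayed replicate 3 at day 5, and Tyro3 at 0.411 CPM in delayed replicate 4 at day 5 and 0.836 CPM in immediate replicate 7 at day 14. Beside these values, the library with high Trem2 also had the highest fibroblast marker sum of its 9 (361 CPM), and the library with high Mfge8 the highest macrophage and dendritic cell sums of its 8 (41980 and 139 CPM). The library with high Cd36 had the lowest macrophage and highest endothelial sums of its 9 (21909 and 74.2 CPM). That of Marco had the lowest dendritic cell and endothelial sums of its 9 (20.5 and 33.2 CPM). The day 14 library of Tyro3 had the highest fibroblast sum of its 8 (1289 CPM). Their part in the values was not tested.

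In the Schwann fraction Gas6 reached 120 CPM in delayed replicate 9 and 90.6 CPM in immediate replicate 5 at day 5, and 42.6 CPM in immediate replicate 7 at day 14. Mertk reached 46.6 CPM in immediate replicate 1 at day 5 and 12.9 CPM in immediate replicate 8 at day 14. The first of these libraries had the highest fibroblast and Schwann cell sums of its 7 (8947 and 1321 CPM) and the second the highest endothelial sum of its 8 (436 CPM). Tyro3 reached 23.3 CPM in delayed replicate 4 at day 14, beside the highest macrophage and fibroblast sums of its 7 (8603 and 20051 CPM). Marco reached 2.93 CPM in delayed replicate 9 at day 5, 0.465 CPM in delayed replicate 8 at day 14 and 23.9 CPM in immediate replicate 7 at day 14, the library with the highest fibroblast sum of its 8 (17068 CPM). Delayed replicate 9 at day 5 also held the highest macrophage marker sum of its 9, 13153 CPM, against a median of 4676 CPM.

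In the stump Gas6 stood at 395 CPM in immediate replicate 4 (next 252), the library with the highest macrophage, fibroblast and endothelial sums (5819, 47859 and 1249 CPM) and the lowest Schwann cell sum (1429 CPM) of its 7. Trem2 stood at 131 CPM in delayed replicate 1 (next 85.9), which had the highest macrophage sum of its 9 (7701 CPM). The difference between the Schwann fraction and macrophages changed between days for Axl, by -2.38 on the log2 scale, and for Mfge8, by -2.84, each by the interaction test.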

How the results depend on the processing

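Of 651 values recomputed under another setting, 599 kept their direction and their side of the threshold, 10 lost and 8 gained a call, and 34 changed sign, none of these with a call in either fit. In the stump the number of members called fell from 3 to 1 with the replicate number as a replicate block (Tyro3 -0.71, adjusted p 0.028; Axl -0.41, 0.052; Pros1 -0.62, 0.051) and to 1 with the macrophage score. After delayed repair, Msr1 gained a call between days in macrophages with the replicate block (-0.68, adjusted p 0.040) and with sex as covariate, and DESeq2 called 5 members there and 2 in the Schwann fraction, and the macrophage score gave 1 there (Trem2, -1.05). Leaving out 1 library gave 2 to 4 members called in macrophages and 0 to 1 in the Schwann fraction. The cause was not tested. Pros1 at day 5 between the fractions passed with library size scaling (adjusted p 0.028).

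The replicate numbers were not taken as pairing, since in no comparison of repair groups did every pair's correlation exceed 0.1 (1 of 7 pairs in the stump, 7 of 8 and 6 of 7 in macrophages at days 5 and 14, 3 of 7 at each day in the Schwann fraction). The delayed library correlated best with the immediate library of its own number in 1 of 7 pairs in the stump. In macrophages this held in 3 of 8 and 5 of 7 pairs, and in the Schwann fraction in 2 of 7 and 1 of 7. Replicate numbers also separated the sexes, so the replicate block takes up sex as well. With the replicate block the log2 values that changed sign were Gas6 -0.022 in the stump, Msr1 0.072 in macrophages at day 14 between repair groups, and in the Schwann fraction Mertk 0.45 (day 5) and Axl -0.028 (day 14) between repair groups, and between days Gas6 1.69, Pros1 0.21, Msr1 0.87 and Trem2 0.59 (immediate), Axl 0.0019 and Gas6 0.93 (delayed). With the animal as block, the change of the fraction difference was 0.15 for Pros1, 0.56 for Cd36 and 0.0027 for Msr1. With the macrophage score as covariate they were Mertk 0.10, Gas6 -0.024, Cd36 -0.51, Msr1 -0.14 and Trem2 -0.22 in the stump, Gas6 -1.25, Cd36 -0.027 and Msr1 -0.21 in the Schwann fraction at day 5, and Gas6 0.63 and Cd36 0.31 between days after delayed repair. With sex as covariate Gas6 in the Schwann fraction was -0.16 between repair groups at day 5 and 0.050 between days after delayed repair.

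In macrophages between days, Trem2 after immediate repair was -0.0025 with filterByExpr, -0.0095 without a filter, -0.078 with the fibroblast score and -0.11 with the dendritic cell score, Mertk -0.078 with the dendritic cell score and, after delayed repair, -0.45 with the fibroblast score. Library size scaling gave Cd36 0.047 there (immediate), Trem2 0.024 between repair groups at day 5, and Axl 0.11 in the Schwann fraction between days (delayed).

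Leaving out 1 library moved these log2 values across 0, none with a call. In macrophages between repair groups they were Pros1 (-0.12 to 0.11) and Trem2 (-0.17 to 0.015) at day 5, and Mertk (-0.058 to 0.33), Gas6 (-0.33 to 0.042), Mfge8 (-0.69 to 0.23), Cd36 (-0.057 to 0.14) and Msr1 (-0.20 to 0.10) at day 14. In the Schwann fraction they were Mertk (-0.47 to 0.87), Gas6 (-0.53 to 1.56) and Mfge8 (-0.25 to 0.48) at day 5, and Axl (-0.032 to 0.21), Tyro3 (-1.02 to 0.20) and Trem2 (-0.37 to 0.24) at day 14. Between days they were Trem2 (-0.061 to 0.11, immediate) and Mertk (-0.039 to 0.36, delayed) in macrophages, and Gas6 (-0.84 to 0.67), Pros1 (-0.56 to 0.011), Cd36 (-0.12 to 1.04), Msr1 (-0.56 to 0.32) and Trem2 (-0.64 to 0.28) after immediate and Gas6 (-0.87 to 0.32) after delayed repair in the Schwann fraction.

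Counts over all genes ranged across settings from 1781 to 3676 in the stump, 2 to 17 and 0 in macrophages between repair groups (days 5 and 14), 0 to 14 and 0 to 3 in the Schwann fraction, 373 to 1484 and 529 to 891 between days in macrophages (immediate, delayed) and 132 to 950 and 254 to 1514 in the Schwann fraction. In the Schwann fraction SE of up to 1.80 on the log2 scale limits what can be detected, and in macrophages Tyro3 lies near the floor of 3 counts.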
